A study of Mus musculus with 8 samples.

Results

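CD8 T cells are described here from 8 libraries of mouse colonic lamina propria in which CD4 cells had been enriched before capture. A barcode, the tag of 1 droplet, counted as a CD8 T cell when it met the following rule. It held at least 400 genes and under 20% mitochondrial counts, at least 2 unique molecular identifiers (UMIs, each standing for 1 captured transcript) of Cd3e, Cd3d, Cd3g, Trac and Trbc2 together, and at least 2 of Cd8a and Cd8b1 together. It held no Cd4 UMI and at most 1 each of Cd79a, Col3a1 and C1qa. Of 100673 deposited barcodes, 96721 met the limits on genes and mitochondrial counts, 53603 of these were T cell barcodes, and 192 were CD8 T cells. The cells were thus selected on their own Cd8a, Cd8b1, Cd4, T cell receptor, Cd79a, Col3a1 and C1qa UMIs. Those genes entered no test, and levels of them given below are description. None of the 192 was on the authors' deposited list of 27420 cells.

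The mice were C57BL/6, 10 to 12 weeks old and kept free of specific pathogens, and each of the 4 groups held 2 libraries. Wildtype and mutant mice were each either left untreated or given DSS. Mutants carry a serine-to-alanine substitution; the sample titles and the series title number the residue differently, and the labels name no promoter or Cre line. DSS (dextran sulfate sodium, which injures the colonic epithelium) was given at 2% in drinking water for 7 days, plain water followed for 3 days, and untreated and treated mice were harvested alike on day 10. Cells came through an enzymatic digest, a Percoll gradient and a magnetic CD4 T cell isolation kit, so the number of CD8 T cells left in a library was set in part by that enrichment.

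CD8 T cells recognise peptides on MHC class I molecules through a receptor paired with CD8, a dimer of the products of Cd8a and Cd8b1. They kill target cells with granzymes and perforin and release the chemokines Ccl3, Ccl4, Ccl5 and Xcl1 and the cytokine interferon gamma. In the gut they comprise conventional CD8alpha-beta cells, many of them resident, and CD8alpha-alpha cells of the epithelium, which lack the beta chain.

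The libraries held 16, 21, 25, 50, 16, 25, 24 and 15 CD8 T cells, in the order wildtype replicates 1 and 2 and mutant replicates 1 and 2 without DSS, then the same 4 with DSS. This order is kept wherever 8 values follow each other. Untreated mutant replicate 2 held more than any other library. Of the 192, 101 had exactly 2 Cd8a and Cd8b1 UMIs, 48 had 3, 20 had 4, 6 had 5 and 17 had 6 or more. Per barcode, UMIs ran from 749 to 17645 with a median of 2464.5, and genes from 463 to 3688 with a median of 1049. Median UMIs per library were 1703 to 3086 in CD8 T cells and 2154.5 to 3126 in CD4 T cells. The summed CD8 UMIs per library were 34340 to 193060. The CD4 T cells used for comparison were the 23563 T cell barcodes of the same libraries with at least 1 Cd4 UMI and no Cd8a or Cd8b1 UMI.

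The label was checked on the markers Cd8a and Cd8b1, which the rule itself used. Levels are in CPM, the UMIs of a gene as a share of all UMIs of the pooled cells of a class in a library, scaled to a total of 1000000. Cd8a (ENSMUSG00000053977, chr6:71373427-71379171 in GRCm38.p6) stood at 334 to 639 CPM and Cd8b1 (ENSMUSG00000053044, chr6:71322788-71337492) at 386 to 641 CPM. Cd8a was at 0 in 53 of the 192 and Cd8b1 in 41. A count of 2 such UMIs was reached by 0.645% of T cell barcodes without Cd4 (192 of 29771, exact binomial 95% interval 0.557% to 0.743%) and by 0.210% of those with Cd4 (50 of 23832, 0.156% to 0.277%). It was also reached by 0.0784% of fibroblast-like barcodes (5 of 6380, 0.0255% to 0.183%), 0.0637% of B cell-like (3 of 4712) and 0.0388% of macrophage-like barcodes (3 of 7739), which should lack both genes, at median depths per library of 3929 to 7438, 2723.5 to 10583 and 2383 to 5027 UMIs against 1652.5 to 2251. Such intervals cover counting error only.

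The rule has a threshold, and the values around it are given once. Among T cell barcodes without Cd4, 29266 had no Cd8a or Cd8b1 UMI and 313 had 1. Pooled Ccl5 stood at 556 CPM with no such UMI, 3522 CPM with 1 and 6148 CPM with 2. Pooled Gzma stood at 58.5, 239 and 583 CPM, and pooled Areg at 326, 255 and 17.3 CPM, in the same order.

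A few of the 192 barcodes carried transcripts of another cell type. Of the 192, 8 had at least 20 UMIs of the class II genes Cd74, H2-Aa, H2-Ab1 and H2-Eb1 (33 to 619, median 239), while no other had more than 10. These 8 had a median of 9324.5 UMIs, 5 lacked Cd8b1, 5 lacked Ccl5, and 4 had at least 5 UMIs of dendritic cell genes. They lay in the libraries as 1, 3, 2, 0, 0, 0, 2 and 0, so untreated libraries held 6 of them and DSS libraries 2. A further barcode, in DSS-treated wildtype replicate 2, had 2437 immunoglobulin UMIs against at most 21 in any other. The remaining 183 are called CD8 T cells without mixed barcodes below. Of the lists of other cells, markers of squamous epithelium (Krt5, Krt14, Krt15, Trp63) were at 0, against 0 to 354 CPM summed in CD4 T cells. Summed neutrophil markers stood at 0 to 10.4 CPM with S100a8, Retnlg and Csf3r at 0, fibroblast markers at 0 to 42.6 CPM with Col1a2 at 0, and colon epithelium markers at 0 to 39.3 CPM with Krt8, Krt20, Car1 and Phgr1 at 0. The bound for a gene at 0 was 3 counts over all UMIs of the 192 cells, or 4.68 CPM. Of the genes named here at 0, only Krt5, Krt14 and S100a8 exceeded it in pooled CD4 T cells, so the other zeros say little. Summed macrophage markers reached 0 to 229 CPM (68.4 to 230.0 in CD4 T cells), endothelial markers 0 to 214 CPM (57.5 to 85.8) and B and plasma cell markers 60.0 to 3296 CPM (105 to 747). The fibroblast, macrophage and B cell sums include Col3a1, C1qa and Cd79a, which the rule capped at 1 UMI per barcode in both classes. These sums were thus held down in part by the rule. Between 19 and 59 barcodes passing the limits were shared by any pair of libraries, no CD8 T cell barcode was shared as such, and 2 were also present in another library.

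**Figure D1:**
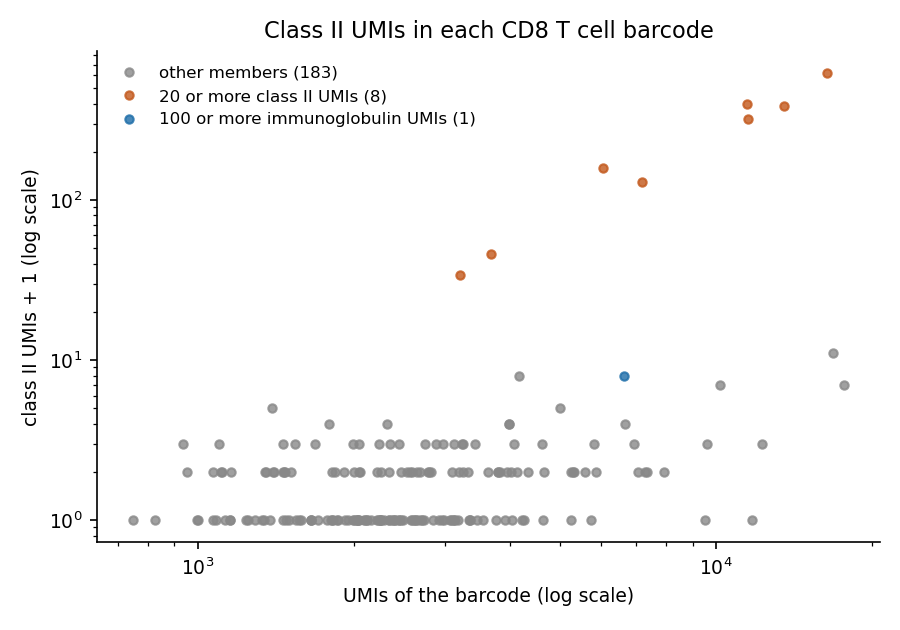
Class II UMIs plus 1 (Cd74, H2-Aa, H2-Ab1 and H2-Eb1, log scale) against the UMIs of each of the 192 CD8 T cell barcodes (log scale), 1 point per barcode. The 8 barcodes with at least 20 class II UMIs lie apart from the rest, which have at most 10; the barcode with 2437 immunoglobulin UMIs is among the latter.

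The promoters of 3 genes that define the contrast with CD4 T cells below are printed for their position and motifs: Gzma, a granzyme, Nkg7, a granule membrane protein, and Eomes, a T-box transcription factor. Each line gives the 250 bases upstream of the start site used in a RefSeq promoter table (GRCm38.p6), which for Eomes lies 3 bases inside the gene's outermost start, 5' to 3' on the gene's strand, with matches to the RUNX core TGTGGT and the T-box core TCACAC on either strand in capitals. RUNX and T-box factors both act in CD8 T cells. The windows are chr13:113100982-113101231 (minus strand) for Gzma, chr7:43436888-43437137 (plus) for Nkg7 and chr9:118477939-118478188 (plus) for Eomes.
Gzma: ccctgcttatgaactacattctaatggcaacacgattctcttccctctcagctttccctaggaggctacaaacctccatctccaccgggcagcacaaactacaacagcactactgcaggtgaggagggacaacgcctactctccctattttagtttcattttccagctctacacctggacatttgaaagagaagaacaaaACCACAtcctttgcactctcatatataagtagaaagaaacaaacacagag
Nkg7: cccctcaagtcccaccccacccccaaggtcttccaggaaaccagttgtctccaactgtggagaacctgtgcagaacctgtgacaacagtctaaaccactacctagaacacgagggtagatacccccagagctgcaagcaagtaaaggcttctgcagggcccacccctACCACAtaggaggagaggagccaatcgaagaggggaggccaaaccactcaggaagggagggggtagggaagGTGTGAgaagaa
Eomes: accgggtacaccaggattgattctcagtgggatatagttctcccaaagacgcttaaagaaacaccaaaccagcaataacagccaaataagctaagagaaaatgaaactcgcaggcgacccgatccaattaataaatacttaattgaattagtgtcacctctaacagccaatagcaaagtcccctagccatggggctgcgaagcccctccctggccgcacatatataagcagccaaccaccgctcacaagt
Gzma holds 1 RUNX match, Nkg7 1 RUNX and 1 T-box match, and Eomes neither. Of 32851 promoter windows of the same length, 14.0% hold the RUNX letters and 12.3% the T-box letters, so a match is common and is only a description of the letters.

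The first comparison asked which genes set the CD8 T cells apart from the CD4 T cells of the same libraries. Most genes of killing, the tested NK-type receptors and the chemokines Ccl3, Ccl4 and Ccl5 were higher in CD8 T cells. Most tested genes of helper, Th17 and regulatory cells, the transcription factor Maf, the growth factor Areg and the chemokines Ccl20 and Cxcl3 were lower. Counts were summed per library and class, and sums of fewer than 20 cells were left out, so 5 libraries entered (untreated wildtype 2, both untreated mutants, DSS-treated wildtype 2 and DSS-treated mutant 1). By edgeR's quasi-likelihood test with the library as a block, 583 of 9441 genes differed (6.18%): 151 rose (1.6%) and 432 fell (4.58%) in CD8 T cells. With all 8 libraries it was 720 of 9269 (7.77%; 1.58% up and 6.19% down), and with all 8 but without mixed barcodes 747 of 9221 (8.1%; 1.37% up and 6.73% down). DESeq2 called 230, of which 100 were higher, so the share of higher calls was 43.5% there against 25.9%. Its median log2 fold change over all genes was -0.05 against -0.17 by edgeR, and the cause of this shift was not tested. Without untreated mutant replicate 2 edgeR called 343. Summed CD4 counts far exceeded the CD8 counts, so each result was also taken from limma on 1 paired difference of log2(CPM + 20) per library over all 8 libraries, which called 428 of 5175 genes (8.27%; 1.37% up and 6.9% down). Of the 9441 genes, every CD8 library lay above every CD4 library for 0.275% and below for 2.65%. Values with an adjusted p name the tool.

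Ccl5 (ENSMUSG00000035042, chr11:83525778-83530518), the chemokine also called RANTES, had the highest level of the genes that set CD8 T cells apart. It stood at 10370.2, 7476, 7719, 5179.7, 8299, 7474, 7473 and 15057 CPM in CD8 T cells and at 192 to 809.6 CPM in CD4 T cells. Every CD8 value lay above every CD4 value, and DSS-treated mutant replicate 2 was the highest. The log2 fold change was 4.13 ± 0.13 (SE, edgeR adjusted p = 1.11e-231) and the limma difference 4.23 (adjusted p = 4.75e-06). This SE, like the other edgeR SEs below, was computed back from the test statistic and is not a spread measured between mice. A Ccl5 UMI was found in 72.4% of CD8 T cells, 21.5% of CD4 T cells and 5.56% of fibroblast-like barcodes, and after thinning to 1000 UMIs in 71.1%, 14.1% and 2.11%. Thinning left out 5, 413 and 23 barcodes.

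Among the granule genes, Nkg7 (ENSMUSG00000004612, chr7:43437138-43438246) stood at 471, 572, 780.5, 632, 641, 924, 819 and 852 CPM against 64.2 to 202 CPM in CD4 T cells. The classes did not overlap (log2 fold change 2.47 ± 0.16, edgeR adjusted p = 2.33e-47; limma adjusted p = 7.34e-10), and 62.0% of CD8 T cells had an Nkg7 UMI against 19.3% of CD4 T cells. Gzma (ENSMUSG00000023132, chr13:113093824-113100981) stood at 903, 971, 326, 275, 291, 909, 918 and 927 CPM against 32.9 to 118 CPM. The 8 CD8 values formed a lower set of 3, both untreated mutants and DSS-treated wildtype replicate 1, and a higher set of 5, all above the CD4 values (3.16 ± 0.18, edgeR adjusted p = 8.48e-67). Gzmb (ENSMUSG00000015437) stood at 845, 319, 678, 388, 669.8, 412, 393 and 251 CPM against 147 to 269 CPM, so that the lowest CD8 library overlapped the CD4 range (0.996 ± 0.17, edgeR adjusted p = 6.61e-07). Prf1, perforin, was found in 22 cells with 25 UMIs and was at 0 in untreated wildtype replicate 1 (3.93 ± 0.59, edgeR adjusted p = 4.32e-09; limma 0.000585). Of the 11 genes of the cytotoxic granule list, 10 were tested, 7 were higher (Ctsw, Fasl, Gzma, Gzmb, Gzmk, Nkg7 and Prf1) and 1 lower (Srgn, the granule proteoglycan also made by other blood cells), with a median log2 fold change of 1.50 against -0.17 over all genes tested. Fasl did not pass under limma (adjusted p = 0.145).

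NK-type receptors, which bind class I and related molecules, were higher in CD8 T cells for 5 of 5 tested genes of a list of 8, with a median log2 fold change of 2.61. Klrd1 (ENSMUSG00000030165), the CD94 chain, stood at 177, 386, 77.2, 57.0, 204, 114, 180.3 and 251 CPM against 6.88 to 16.2 CPM in CD4 T cells. No CD8 value came near the CD4 range (3.78 ± 0.37, edgeR adjusted p = 8.2e-22; limma 3.11e-10), and 29.7% of CD8 T cells had a Klrd1 UMI against 2.56%. Klre1, a chain of an inhibitory or activating lectin-like dimer, had the largest log2 fold change of the genes that rose and met the naming rule (6.03 ± 0.54, edgeR adjusted p = 1.57e-26; limma 0.000422), from 42 UMIs in 26 cells, with 0 in DSS-treated wildtype replicate 1. Klrk1, the NKG2D receptor, differed by 2.61 ± 0.32, Klrc1 by 2.51 ± 0.39 and Klrc2 by 1.94 ± 0.53 on the same scale (edgeR adjusted p = 2.3e-13, 2.31e-08 and 0.00736).

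The transcription factors of CD8 effector and memory cells did not move together. Eomes (ENSMUSG00000032446, chr9:118478186-118486132) stood at 118, 146, 214, 104, 58.2, 85.3, 98.3 and 200.4 CPM against 1.29 to 9.40 CPM. The gap held in each library (5.04 ± 0.42, edgeR adjusted p = 6.11e-31; limma 4e-10). Runx3, needed in development to silence Cd4, stood at 175 to 442 CPM against 262 to 292 CPM and did not pass (0.09 ± 0.18, edgeR adjusted p = 0.883), and neither did the T-box factor Tbx21 (0.49 ± 0.48, edgeR adjusted p = 0.733). Of 11 effector and memory regulators, all tested, Eomes and Ly6c2 were higher and Cd44, Id2, Il2rb and Zeb2 lower, with a median of 0.27. Ly6c2 was at 0 in untreated mutant replicate 1 and DSS-treated wildtype replicate 2.

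Of the chemokine and cytokine list, 11 of 12 genes were tested, 4 were higher and 4 lower, with a median log2 fold change of -1.84. Ccl4 (ENSMUSG00000018930), also called MIP-1beta, stood at 98.2, 159.6, 249, 176, 204, 256, 213 and 100.2 CPM against 8.43 to 31.0 CPM in CD4 T cells. Its classes were far apart in all 8 libraries (3.33 ± 0.25, edgeR adjusted p = 3.61e-36; limma 9.31e-11). Ccl3 differed by 2.64 ± 0.54 (edgeR adjusted p = 5.13e-05; limma 0.0411) from 26 UMIs in 9 cells. Xcl1, lymphotactin, differed by 3.63 ± 0.42, but 36 of its 72 UMIs lay in 1 barcode of DSS-treated mutant replicate 1 and limma gave an adjusted p of 0.181. Ifng did not pass (-0.42 ± 0.21, edgeR adjusted p = 0.285), with 29.1 to 276 CPM in CD8 and 109.6 to 272 CPM in CD4 T cells. An Ifng UMI was found in 27.1% of CD8 and 21.6% of CD4 T cells, and after thinning in 18.2% and 11.5%.

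**Figure D2:**
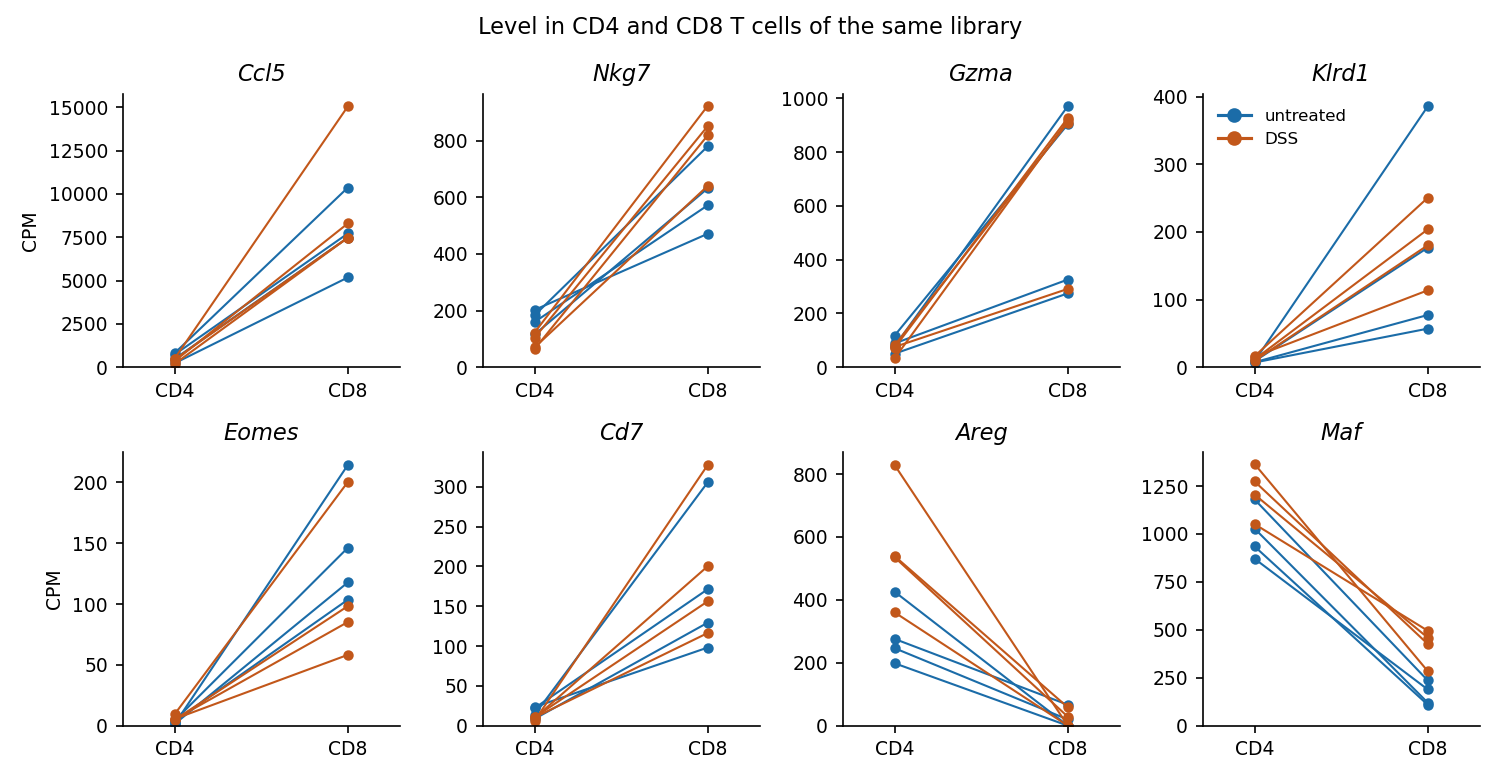
Level of 8 genes in CPM in the pooled CD4 and CD8 T cells of each library, 1 line per library, blue for untreated and orange for DSS. Ccl5, Nkg7, Gzma, Klrd1, Eomes and Cd7 lie higher in CD8 T cells and Areg and Maf lower in each of the 8 libraries.

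Areg, Maf, Il17a and 6 of 9 tested CD4 type genes were lower in CD8 T cells. Areg (ENSMUSG00000029378), amphiregulin, an epithelial growth factor made by regulatory T cells among others, stood at 19.6, 66.5, 0, 0, 58.2, 28.4, 0 and 0 CPM against 198 to 829 CPM. The CD8 values were below the lowest CD4 value throughout (-4.97 ± 0.32, edgeR adjusted p = 2.44e-50; limma 4.18e-06). Maf (ENSMUSG00000055435), a transcription factor of Th17, follicular helper and Il10-producing cells, stood at 236, 119.7, 189, 109, 495, 284, 459 and 426 CPM against 871 to 1365 CPM, again without overlap (-2.47 ± 0.17, edgeR adjusted p = 3.77e-44). Il17a stood at 0, 66.5, 42.9, 20.7, 0, 28.4, 885 and 0 CPM against 172 to 1305 CPM (-2.75 ± 0.21, edgeR adjusted p = 6.36e-37; limma 0.00831), and only in DSS-treated mutant replicate 1 was its CD8 level within the CD4 range. Of 10 CD4 type genes, 9 were tested and 6 were lower (Ccr6, Cd40lg, Cxcr5, Foxp3, Il17f and Il2ra), none higher, with a median of -2.74, or -2.52 with Ccr6 at its bound.

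Some genes of CD4 T cells gave no UMI in any CD8 T cell, and for these only a bound can be given, set at 3 counts over all 641398 UMIs of the 192 cells. The pooled CD4 level stood 7.51-fold above this bound for Ccl20, a ligand of Ccr6, 6.67-fold for Ppp1r14c, 4.83-fold for Ccr6 and 4.81-fold for Rbm24. The bound covers counting error of the pooled UMIs only, and no spread between cells or mice. Rbm24 did not pass by DESeq2 (adjusted p = 0.0719), and the highest adjusted p of the others over the alternatives was 0.0357 (Ccr6). Socs2, a suppressor of cytokine signalling, and the neutrophil chemokine Cxcl3 each had 2 UMIs in CD8 T cells (edgeR adjusted p = 3.08e-08 and 2.52e-16).

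Markers of residence in tissue were split. Itgae (ENSMUSG00000005947), CD103, which binds E-cadherin of epithelium, stood at 118, 53.2, 129, 46.6, 29.1, 114, 49.2 and 50.1 CPM against 14.4 to 48.3 CPM in CD4 T cells, so the classes overlapped over the libraries (1.63 ± 0.35, edgeR adjusted p = 0.00013; limma 0.021). Itga1 was also higher (1.62 ± 0.44, edgeR adjusted p = 0.00662), and Cd69, Cxcr6, Prdm1 and Rgs1 were lower, out of 12 tested of 13 genes, with a median of -0.46. Cxcr6, a chemokine receptor of resident cells, differed by -1.60 ± 0.24 (edgeR adjusted p = 3.13e-09), and Cd69, which holds cells in tissue, by -0.58 ± 0.17 (edgeR adjusted p = 0.0195; limma 0.0787). Of the 10 genes of naive and recirculating cells, 9 were tested, none was higher and Il7r and Satb1 were lower, with a median of -0.10. Ccr7, Lef1, Tcf7 and Klf2 did not pass.

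Genes of the CD8alpha-alpha epithelial type were higher for 4 of 8 tested (Cd160, Cd7, Gpr18 and Itgax) of 10 listed, with a median of 1.20. Cd7 (ENSMUSG00000025163, chr11:121036747-121039478), a surface molecule of T and NK cells, stood at 98.2, 306, 172, 129, 116, 156, 328 and 200.4 CPM against 6.18 to 23.4 CPM. The lowest CD8 library was above the highest CD4 library (4.05 ± 0.29, edgeR adjusted p = 9.16e-40; limma 9.31e-11). Cd160 differed by 3.92 ± 0.46 (edgeR adjusted p = 6.49e-15; limma 0.00427) with 0 in both DSS-treated wildtype replicate 1 and DSS-treated mutant replicate 2. Itgax, a gene shared with dendritic cells, was found in 16 cells. Of the gamma-delta genes, Trdc was found in 3 of the 192 and any gamma or delta constant gene in 33. Tcrg-C2 gave 18 UMIs in 18 cells and was higher than in CD4 T cells (2.96 ± 0.58, edgeR adjusted p = 1.93e-05). The gamma constant genes are near-identical copies, so their counts are uncertain.

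Of 8 checkpoint genes, all tested, Ctla4 and Lag3 were lower and none higher, with a median of -0.57. Ctla4 stood at 177 to 377 CPM against 559.9 to 927 CPM (-1.84 ± 0.17, edgeR adjusted p = 2.3e-23). Of 8 immediate early genes, which are also induced by tissue digestion, 5 were lower (Dusp1, Fos, Fosb, Jun and Junb) with a median of -0.68. Class I presentation was higher for Psmb9 only of 7 tested, interferon-induced genes for Bst2 only of 9, with Ifi27l2a and Igtp among those lower. Of 9 proliferation genes, 5 were higher with 5 libraries (Birc5, Mki67, Stmn1, Top2a and Tyms), 3 with all 8 libraries, and 0 of 7 by limma over all 8 libraries. An Mki67 UMI was found about as often in either class, in 12.0% of CD8 and 12.2% of CD4 T cells, and after thinning in 5.88% and 5.52%. Bend4, a DNA-binding BEN-domain gene, was another gene with a large difference (4.40 ± 0.50, edgeR adjusted p = 9.03e-16), and Plac8 differed by 1.78 ± 0.19 (edgeR adjusted p = 5.46e-18).

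**Figure D3:**
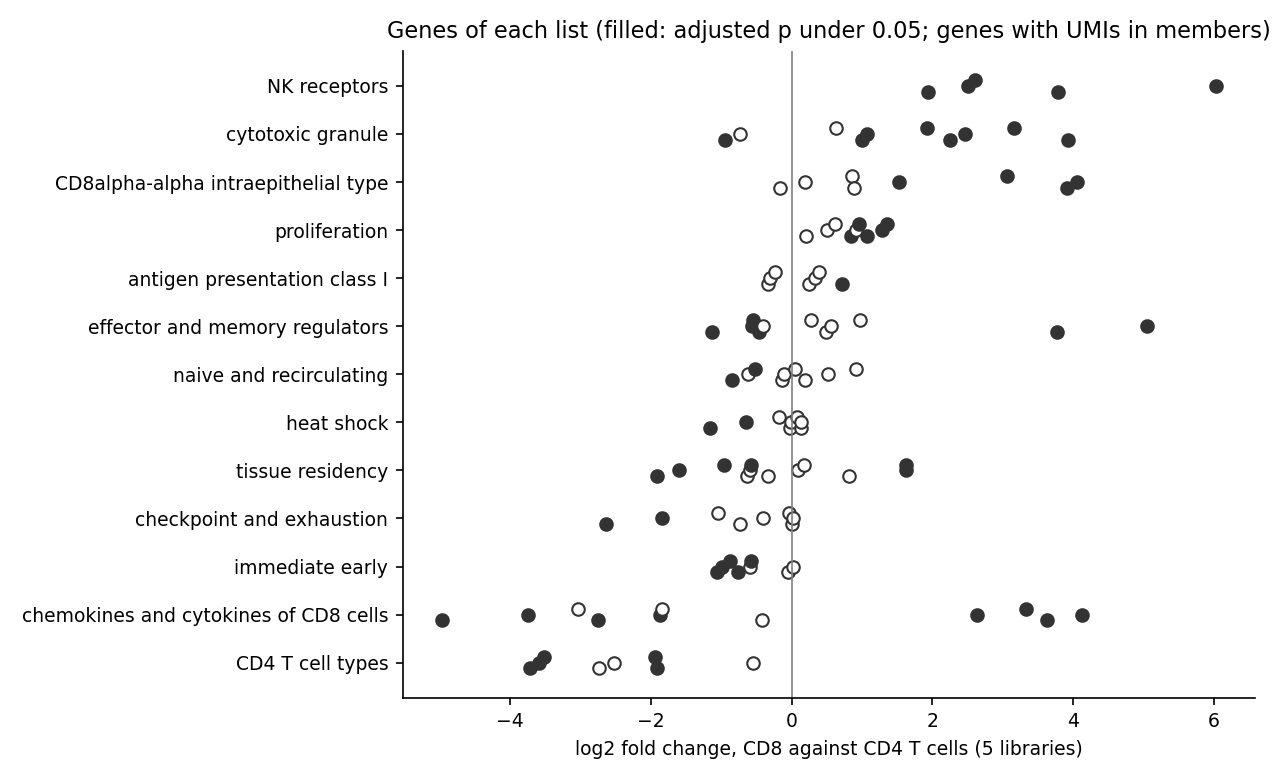
Log2 fold change of CD8 against CD4 T cells in 5 libraries for the genes of 13 lists, 1 point per gene with at least 1 UMI in CD8 T cells (Ccr6, at 0, is not drawn), filled where the edgeR adjusted p is under 0.05. All tested NK receptor genes lie to the right of 0, and the CD4 type genes to the left.

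Whole-library levels hide differences among the CD8 T cells themselves. In the 183 without mixed barcodes, 135 had a Ccl5 UMI (median 2339 UMIs) and 48 had none (median 2741.5). This split was chosen after its values were seen and is a description without a test. Nkg7 was found in 78.5% of cells with Ccl5 and 18.8% of those without, Gzmb in 43.7% and 2.08%, Eomes in 30.4% and 4.17%, and Ifng in 36.3% and 4.17%. Gzmk was found in 24.4% of those with Ccl5 and in 0 of the 48 without. The genes of recirculation showed the opposite order: Lef1 in 11.9% and 45.8%, Ccr7, the lymph node homing receptor, in 5.19% and 41.7%, S1pr1, which lets cells leave lymphoid tissue, in 6.67% and 37.5%, and Klf2 in 22.2% and 54.2%. Ccr9, the small intestinal homing receptor, was found in 0 of 135 and 7 of 48. Gzma (23.7% and 20.8%), Itgae (11.9% and 10.4%) and Runx3 (45.9% and 47.9%) were found about as often in either. Among all 192, Gzma was found in 45, Gzmk in 34, and both in 16.

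Cells without a Cd8b1 UMI were compared with those that had one only as pooled sums, since no library held 20 cells without it and the test by library could not be fitted. Without mixed barcodes there were 36 such cells with 99090 UMIs and 147 others with 462737 UMIs, and a cell with few UMIs can miss Cd8b1 by sampling. Pooled Gzma stood at 1423 CPM without and 473 CPM with Cd8b1, Cd7 at 545 and 115 CPM, Klrd1 at 373 and 104 CPM, and Itgae at 161 and 38.9 CPM, the last from 8 and 13 cells. Pooled Eomes went the other way, 50.5 CPM without and 171 CPM with Cd8b1, as did Gzmk (50.5 and 108 CPM) and Lef1 (30.3 and 117 CPM). Ccl5 was close, at 9829 and 8078 CPM. Pooled Tcrg-C2 stood at 70.6 CPM without and 21.6 CPM with Cd8b1, from 7 and 10 cells. These sums mix libraries, since untreated mutant replicate 2, the lowest for Gzma and Klrd1, gave 46 of the cells with Cd8b1 and 4 of those without. Without that library pooled Gzma stood at 1701 and 583 CPM, Cd7 at 620 and 108 CPM, Klrd1 at 437 and 133 CPM and Eomes at 48.6 and 209 CPM. Within libraries, cells without Cd8b1 were higher for Cd7 and Klrd1 in 7 of 8, for Itgae in 5 and for Gzma in 4, and lower for Eomes and Lef1 in 7 and for Gzmk in 6. Of the 36 cells, only 4 had an Eomes UMI, 3 a Gzmk UMI and 2 a Lef1 UMI, and no library held more than 8 cells without Cd8b1. At such counts several libraries stood at 0 for these genes, so a lower value there says little.

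The next question was whether the share of CD8 T cells differed between groups. As a percentage of T cell barcodes the 8 libraries stood at 0.236%, 0.340%, 0.513%, 0.830%, 0.213%, 0.340%, 0.274% and 0.245%. Both untreated mutants lay above the other 6 libraries, which overlapped, but their CD8 T cells also had the highest median UMIs (3086 and 2951.5, against 1703 to 2465 in the others). With the rule applied after thinning each barcode to 1000 UMIs, 46 CD8 T cells were left, and the shares were 0.123%, 0.0419%, 0.0517%, 0.300%, 0.0547%, 0.095%, 0.154% and 0.1002%. Untreated mutant replicate 2 was still the highest and untreated mutant replicate 1 was then the second lowest, from 2 cells. Without DSS the mean was 0.288% ± 0.0735 (SD, n = 2) in wildtype and 0.672% ± 0.224 in mutant mice, and with DSS 0.277% ± 0.0903 in wildtype and 0.259% ± 0.0207 in mutant mice. DSS and untreated libraries differed by -0.212 percentage points (two-sided exact permutation test, p = 0.2, n = 4 and 4), and mutant and wildtype libraries by 0.183 points (exact permutation p = 0.286). Adjusted over both comparisons, each p was 0.286, and the smallest p that 70 splits allow is 0.0286. After thinning the differences were -0.0282 points (DSS, exact permutation p = 0.8) and 0.073 points (mutant, 0.257). The isolation kit acts on these shares, and fewer CD8 T cells left by the kit and fewer in the tissue cannot be told apart.

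**Figure D4:**
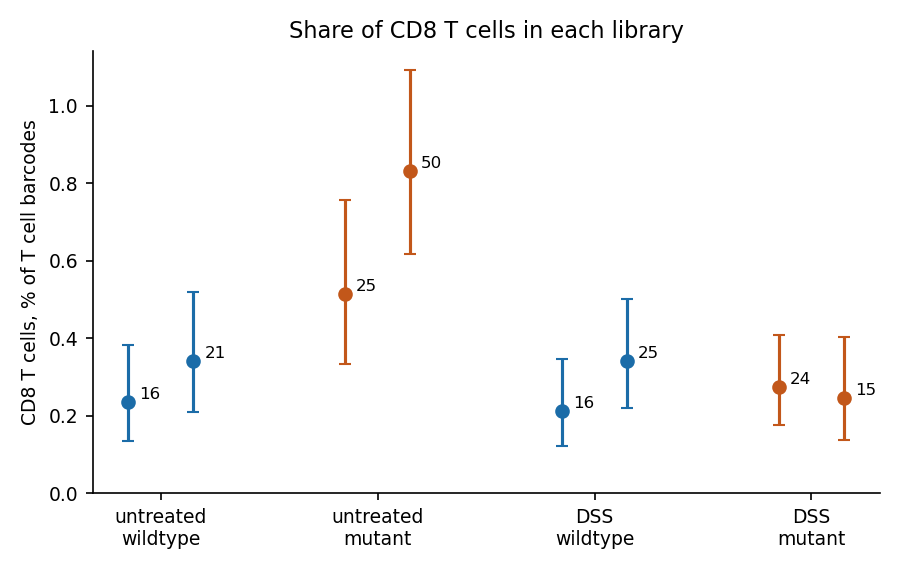
CD8 T cells as a percentage of T cell barcodes in each library, with exact binomial 95% intervals and the number of CD8 T cells beside each point, blue for wildtype and orange for mutant. The untreated mutant libraries stand at 0.513% and 0.830%, the other 6 between 0.213% and 0.340%; after thinning to 1000 UMIs (not drawn) the first falls to 0.0517%, within the range of the others.

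The design next compared DSS with untreated colon. After DSS the ribosomal-repeat transcript Gm42418 and Lars2, a mitochondrial leucyl-tRNA synthetase, were higher in CD8 T cells and the chaperone Hspe1 was lower, while Ccl5, Nkg7, Gzma and Gzmb did not pass. With 5 libraries, 63 of 1694 genes differed with genotypes averaged by edgeR (3.72%), of which 19 rose (1.12%) and 44 fell (2.6%). Here DSS-treated wildtype and mutant and untreated wildtype had 1 library each, so the only spread measured was that between both untreated mutants, and single libraries were assumed to vary alike. With all 8 libraries 8 of 1286 passed (0.622%; 0.389% up and 0.233% down), and with all 8 but without mixed barcodes 23 of 982 (2.34%; 1.12% up and 1.22% down). Of the 1286 genes, all DSS libraries lay above all untreated ones for 5.44% and below for 5.21%. All 8 were among the 63, and 18 of the 23 were. With 8 libraries the count fell to 0 without DSS-treated wildtype replicate 2 or DSS-treated mutant replicate 2, and to 1 without DSS-treated mutant replicate 1.

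Gm42418 (ENSMUSG00000098178), a predicted gene that overlaps a ribosomal RNA repeat and was named after its values were seen, stood at 48021, 24636, 29161, 28701, 67764, 67762, 65829 and 111014 CPM. All DSS libraries were above all untreated ones. The log2 fold change was 1.29 ± 0.09 with 5 libraries (edgeR adjusted p = 2.3e-44) and 1.27 ± 0.19 with 8 (edgeR adjusted p = 0.00979). CD4 T cells of the same libraries moved alike, at 45419, 26919, 30751, 28029, 57189, 74407, 52732 and 74972 CPM, and the DSS effects of the classes differed by 0.05 (edgeR adjusted p = 1). Lars2 (ENSMUSG00000035202) stood at 884, 399, 437, 653, 1456, 1506, 1458 and 2129.6 CPM without overlap (1.48 ± 0.28 with 8 libraries, edgeR adjusted p = 0.0318), and at 488 to 1571 CPM in CD4 T cells. A part of library composition or of RNA quality in these changes was not tested.

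Several regulators passed in some fits and missed in others. Maf, described above, was higher in each DSS library than in any untreated one (1.42 ± 0.38 with 5 libraries, edgeR adjusted p = 0.0107; 0.0509 with 8; 0.027 with 8 and no mixed barcodes). Prkch, a protein kinase C of T cell receptor signalling, stood at 137, 79.8, 172, 171, 320.3, 384, 279 and 351 CPM, again without overlap (1.44 ± 0.41, edgeR adjusted p = 0.0174; 0.0509 with 8). Mxi1, an antagonist of Myc, stood at 98.2, 79.8, 111, 124, 262, 242, 442 and 175 CPM with the same order (1.71 ± 0.41, edgeR adjusted p = 0.00264; 0.0509 with 8). For these genes the DSS effect in CD8 T cells was not shown to differ from that in CD4 T cells (edgeR adjusted p = 0.76, 0.987 and 0.621).

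Of the 8 heat shock genes, 3 were lower after DSS with 5 libraries (Hsp90aa1, Hspd1 and Hspe1) and none higher, with a median of -0.37 against -0.02 over all tested. Hspe1 stood at 668, 1290.3, 1295, 1569, 379, 554, 590.0 and 351 CPM, with all untreated libraries higher (-1.28 ± 0.33, edgeR adjusted p = 0.00494; 0.0439 with 8 libraries). Hsp90aa1 stood at 1552, 3299, 4520.0, 4724, 2446, 1222, 1835 and 1879 CPM, where untreated wildtype replicate 1 lay within the DSS range (-1.41 ± 0.24, edgeR adjusted p = 1.21e-06; 0.0887 with 8). In CD4 T cells Hsp90aa1 ran from 1397 to 5754 CPM and was highest in both untreated mutants too.

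Of the proliferation list, 1 of 4 tested genes (Stmn1) was lower after DSS with 5 libraries, 0 of 3 with 8 and 1 of 3 with 8 and no mixed barcodes, and none was higher by edgeR. Hist1h2ap, a histone of dividing cells, differed by -3.11 ± 0.54 (edgeR adjusted p = 1.98e-06; 0.0633 with 8 libraries; 0.0016 with 8 and no mixed barcodes), from 0, 173, 369, 834, 0, 28.4, 49.2 and 50.1 CPM. Untreated wildtype replicate 1, at 0, lay with the DSS libraries, and with 8 libraries but untreated wildtype replicate 2 the log2 fold change was 0.050. Stmn1, whose levels follow below, differed by -1.44 ± 0.38 (edgeR adjusted p = 0.00931; 0.0649; 0.0137).

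With genotypes averaged, 0 of 6 tested genes of the cytotoxic granule list and 0 of 7 of the chemokine and cytokine list were called for DSS by edgeR with 5 libraries. With 5 libraries the log2 fold change was 0.07 ± 0.17 for Ccl5 (edgeR adjusted p = 0.857), 0.42 ± 0.33 for Nkg7 (0.526), 0.73 ± 0.32 for Gzma (0.233) and -0.06 ± 0.35 for Gzmb (0.945). The test of the difference from CD4 T cells, where these genes are also expressed, gave 0.61 ± 0.21 for Ccl5 and 1.04 ± 0.30 for Nkg7 (edgeR adjusted p = 0.486 and 0.167), and with all 8 libraries 0.71 ± 0.16 and 1.14 ± 0.27 (0.00999 and 0.0134). Without mixed barcodes neither passed with all 8 (0.264 and 0.228).

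In wildtype mice the class II genes Cd74 and H2-Ab1 were lower after DSS with 5 libraries (edgeR adjusted p = 2.03e-15 and 7.43e-11) and did not pass with all 8 (0.261 each). Cd74 stood at 3594, 3685, 3894, 124, 0, 156, 803 and 50.1 CPM with all 192 cells, and at 101, 119, 115, 124, 0, 125, 203.2 and 50.1 CPM without mixed barcodes. The high values lay in the 3 libraries that held 6 of the 8 mixed barcodes. Likewise Jchain, at 3268 CPM in DSS-treated wildtype replicate 2, had 205 of its 352 UMIs in 1 barcode. In wildtype mice alone, DSS changed 30 of 1694 genes with 5 libraries (1.77%; 0.472% up and 1.3% down), 1 library against 1, among them the class II and dendritic genes Cd74, H2-Ab1, Cst3 and Irf8. With all 8 libraries 1 gene passed (Cxcl9, 0.0778%), and without mixed barcodes as well 0 by edgeR.

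The untreated mutants were compared with untreated wildtype mice. With 5 libraries, 2 against 1, 19 of 1694 genes passed by edgeR (1.12%), 10 up (0.59%) and 9 down (0.531%). Without barcodes over 3 times the median UMIs 27 passed, 8 up and 19 down, and 11 of the 27 had also passed with all barcodes. With only cells that had Cd8b1 23 passed, of which 8 had also passed with all cells. With all 8 libraries 1 passed (Cxcl9, 0.0778%), and with all 8 without mixed barcodes 11 of 982 (1.12%), 7 up (0.713%) and 4 down (0.407%). Cxcl9 had 70 UMIs in 6 cells, 37 of them in 1 barcode, and was too low to test without mixed barcodes.

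Gzma, shown above, was lower in both untreated mutants (326 and 275 CPM) than in both untreated wildtype libraries (903 and 971 CPM). The log2 fold change was -1.69 ± 0.41 with 5 libraries (edgeR adjusted p = 0.00646), -1.65 ± 0.40 with 8 (0.159) and -1.87 ± 0.37 with 8 and no mixed barcodes (0.00256). Without barcodes over 3 times the median UMIs it was 0.09, and 54 of the 377 Gzma UMIs lay in 1 barcode. Klrd1 was lower in the same libraries, 77.2 and 57.0 CPM against 177 and 386 CPM (-2.54 ± 0.51 with 5 libraries). Its edgeR adjusted p was 0.14 with 8 libraries and 0.00666 with 8 and no mixed barcodes. Plac8 stood at 223 and 269 CPM against 707 and 798 CPM (-1.68 ± 0.40, edgeR adjusted p = 0.00556; 0.14 and 0.0406), and with only cells that had Cd8b1 the difference was 0.11. Ccl5, Nkg7 and Gzmb did not pass (-0.21, 0.30 and 0.73 with 5 libraries, edgeR adjusted p = 0.984, 0.984 and 0.924).

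With 5 libraries, 1 of 4 tested proliferation genes (Mki67) and 2 of 8 heat shock genes (Hspa1a and Hspa1b) were higher in untreated mutants and none lower by edgeR. With all 8 libraries no gene of either list passed, and with 8 and no mixed barcodes 1 of 3 (Mki67) and 4 of 7 (Hsp90aa1, Hspa1a, Hspd1 and Hsph1) were higher. Mki67, a protein of dividing cells, stood at 19.6, 93.1, 497, 352, 0, 156, 65.6 and 100.2 CPM, highest in both untreated mutants. The log2 fold change was 2.16 ± 0.56 with 5 libraries. With 5 and no mixed barcodes it was 2.03 and did not pass by edgeR. With 8 libraries it was 2.72 by edgeR (adjusted p = 0.159) and 2.82 by DESeq2 (adjusted p = 0.671). With 8 and no mixed barcodes it was 2.85 (edgeR adjusted p = 0.00448). Mki67 was found in 23 cells, 10 of them in untreated mutant replicate 2, and Mki67 or Top2a was found in 3, 5, 5, 18, 3, 6, 5 and 5 cells. In untreated mutant replicate 1, 56 of its 58 Mki67 UMIs lay in 3 barcodes, and in untreated mutant replicate 2, 41 of 68 did. Without barcodes over 3 times the median UMIs Mki67 did not pass (3.08, edgeR adjusted p = 0.362). The summed proliferation list in CD8 T cells stood at 412 and 998 CPM in wildtype and 1818 and 2067 in mutant libraries without DSS, at 291 and 952 in wildtype and 426 and 656 in mutant libraries with DSS, and at 492 to 799.5 CPM in CD4 T cells. Hspa1a, an inducible chaperone, stood at 58.9, 13.3, 883, 171, 553, 85.3, 81.9 and 125 CPM, where DSS-treated wildtype replicate 1 was also high (5.15 ± 0.81 with 5 libraries). Its edgeR adjusted p was 0.229 with 8 libraries and 0.00109 with 8 and no mixed barcodes. In CD4 T cells Hspa1a was 1488 and 386 CPM in untreated mutants and 69.1 to 202.7 CPM elsewhere, so heat shock transcripts of both classes moved together in these libraries. A part of cell handling in this was not tested.

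After DSS, mutant and wildtype CD8 T cells were compared with 1 library against 1. With 5 libraries 8 of 1694 genes passed by edgeR (0.472%), 5 up (0.295%) and 3 down (0.177%), and with all 8 libraries 0 passed. Il17a, with 54 of its 70 UMIs in DSS-treated mutant replicate 1, and Xcl1, with 36 of 72 UMIs in 1 barcode, were among the 8 (4.78 ± 0.73 and 3.75 ± 0.74, edgeR adjusted p = 3.71e-08 and 0.000171). DSS-treated mutant replicate 2 had no UMI of either. Both were too low to test with all 8 libraries.

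The difference between the DSS effects in CD8 and CD4 T cells was itself tested. Of 10537 genes, 19 passed by edgeR with 5 libraries (0.18%; 0.0759% up and 0.104% down). With all 8 libraries 25 of 10055 passed (0.249%; 0.0597% up and 0.189% down). Stmn1 (ENSMUSG00000028832), a microtubule regulator of dividing cells, stood at 137, 426, 489, 746, 146, 227, 164 and 75.2 CPM in CD8 T cells and at 145 to 235 CPM in CD4 T cells. In CD8 T cells the 3 highest libraries were untreated, untreated wildtype replicate 1 lay among the DSS libraries, and in CD4 T cells the treatments overlapped. The difference of effects was -1.47 ± 0.37 (edgeR adjusted p = 0.0392) and -1.48 ± 0.34 with all 8 libraries (0.00999). With 1 of the 5 libraries left out it passed by the same edgeR test without untreated wildtype replicate 2 (-1.78, adjusted p = 0.00181) and did not pass without the others, at -1.73 (adjusted p = 0.269) for DSS-treated wildtype replicate 2, -1.19 (1) for DSS-treated mutant replicate 1, -1.59 (0.109) for untreated mutant replicate 1 and -0.92 (0.979) for untreated mutant replicate 2. With 1 of all 8 left out it passed in 5 of 8 fits, and did not without untreated mutant replicate 1 (-1.46, edgeR adjusted p = 0.088), untreated mutant replicate 2 (-0.95, 0.62) or DSS-treated mutant replicate 2 (-1.24, 0.17). Mki67 moved alike (-1.83 ± 0.44, edgeR adjusted p = 0.0196; 0.00332 with 8). Gzma went the other way with 5 libraries (1.33 ± 0.32, edgeR adjusted p = 0.0196) and did not pass with 8 (0.79 ± 0.29, 0.439). The model held library, class and class by treatment, with no class by genotype term. Among wildtype libraries alone, the CD8 levels of Stmn1, Mki67 and Gzma overlapped between untreated and DSS-treated mice. An effect of DSS and a difference between genotypes in untreated mice cannot be told apart in this fit.

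**Figure D5:**
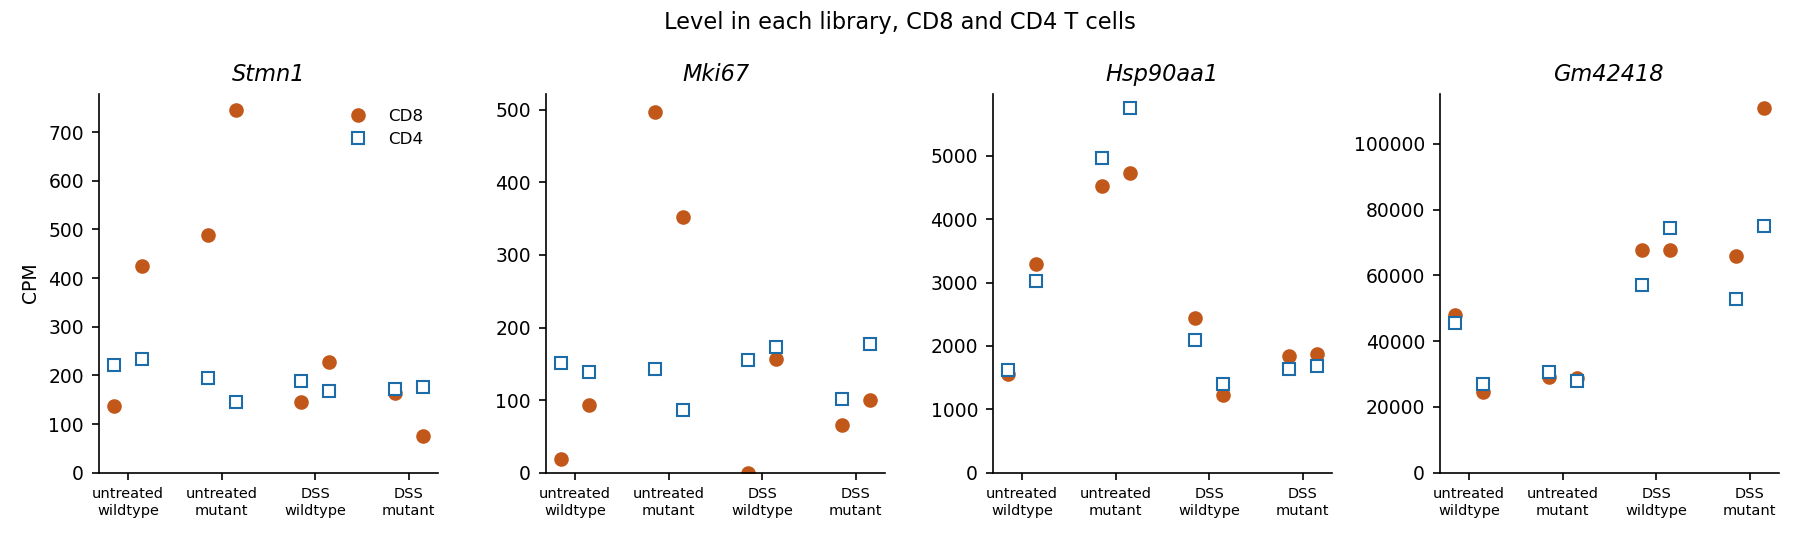
Level of Stmn1, Mki67, Hsp90aa1 and Gm42418 in CPM in each library, filled circles for CD8 and open squares for CD4 T cells. Stmn1 and Mki67 are highest in CD8 T cells of untreated mutants (489 and 746, 497 and 352) and vary less in CD4 T cells, while Hsp90aa1 and Gm42418 follow the same libraries in both classes.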

How the data were processed

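Droplet 3' single-cell libraries were counted by the authors with Cell Ranger 3.1.0 against mm10, and Seurat 4.0.1 is also named, per the submitters' processing notes. The deposited tables hold raw UMI counts per gene and barcode, with 1 table per library. Row order was checked: of 31053 identifiers, 30934 were found in a reference table and 98.5% of these had the listed symbol. The members, gene lists, thresholds and tests were chosen with earlier results of these data known. The gate genes entered no test.

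Counts were summed per library and class and tested by edgeR 4.0.16 (R 4.3.3; TMM, filterByExpr, quasi-likelihood, Benjamini-Hochberg), with the library as a block between classes and with 4 group means between conditions. Sums under 20 cells were left out, which kept 5 libraries. The SE printed with an edgeR value is the absolute log2 fold change over the square root of the F statistic. Replicates are separate mice per the labels. Fits on all 8 libraries, without barcodes with at least 20 class II or 100 immunoglobulin UMIs, and by limma 3.58.1 with an offset of 20 CPM were added after the data were seen. The alternatives were DESeq2 1.42.0, no filter, at least 3 Cd8 UMIs, no barcode over 3 times the median UMIs (the doublet treatment; no caller was run), only cells with Cd8b1, none with gamma-delta genes, and leaving out each library. Shares were tested by an exact permutation test. Scripts were tested on simulated data. The text names list genes and, per comparison, up to 10 genes per direction with the largest log2 fold change under a naming rule. The rule asked for an adjusted p under 0.05, at least 20 CPM in the higher class, and 1 direction in all library pairs or no overlap. Levels and directions were taken over the 5 libraries of the fit only. Where 1 library stood against 1, any difference met the condition of no overlap. In the Ccl5 split and for Gm42418 and other genes outside the rule and the lists, genes were chosen after their values were seen. Some genes that met the rule and some list genes are not reported here. Proteins were not used here.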

Additional observations from a re-analysis of the deposited data

Results flagged for a closer look

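The effect of DSS differed between CD8 and CD4 T cells by edgeR's test of the difference for 5 genes that met the naming rule, with 5 libraries. As stated above, this fit had no class by genotype term. By DESeq2 0 of 10537 genes passed for this difference with 5 libraries and 0 of 10055 with 8. Stmn1 differed by -1.47, as described above. Taldo1, an enzyme of the pentose phosphate pathway, differed by -2.49 (edgeR adjusted p = 0.0139), from 157, 372, 232, 176, 116, 14.2, 65.6 and 150.3 CPM in CD8 T cells, and did not pass with all 8 libraries (-1.43, 0.212). With 1 library left out it ran from -3.88 to -0.94, and with 5 libraries it did not pass by edgeR without DSS-treated wildtype replicate 2 (-1.68, adjusted p = 0.988), untreated wildtype replicate 2 (0.0521) or untreated mutant replicate 1 (0.077). Tnfsf8, the CD30 ligand, differed by 2.00 (edgeR adjusted p = 0.00433; 0.452 with 8), and DSS-treated mutant replicate 2 had no UMI of it. It ran from 0.57 to 2.43 with 1 library left out, and with 5 libraries did not pass by edgeR without DSS-treated wildtype replicate 2 (1.73, adjusted p = 0.61) or untreated mutant replicate 1 (1.88, 0.077). Stat4, which relays interleukin 12 signals, differed by 1.40 (edgeR adjusted p = 0.0468; 0.391 with 8). It ran from 0.63 to 2.02 with 1 library left out, and of the 5 fits leaving out 1 of the 5 libraries it passed by edgeR only without untreated mutant replicate 2 (adjusted p = 0.000198). Ifitm3, an interferon-induced membrane protein, had a fitted value of -11.9 (edgeR adjusted p = 0.00135), which is no bound: it had 31 UMIs in 6 CD8 T cells, 13 of them in 1 barcode, and none in any DSS library. It also passed with all 8 libraries (edgeR adjusted p = 0.000499), and with 5 it did not pass without DSS-treated mutant replicate 1 (0.333), DSS-treated wildtype replicate 2 (0.116) or untreated mutant replicate 1 (0.077).

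A further 50 T cell barcodes had both a Cd4 UMI and at least 2 Cd8a and Cd8b1 UMIs and entered no comparison. They lay in the libraries as 4, 6, 6, 11, 9, 3, 7 and 4 and made up 0.210% of T cell barcodes with Cd4, above the 0.0784% of fibroblast-like barcodes that reached 2 such UMIs.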

How the results depend on the processing

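The 20 genes that met the naming rule for CD8 against CD4 T cells kept their direction in each alternative that tested them, and 16 passed in each of those. Rbm24, Samd11, Pxdc1 and Sema4b did not pass by DESeq2 (adjusted p = 0.0719, 0.0604, 0.0579 and 0.0711), nor did Sema4b without untreated mutant replicate 2 (edgeR adjusted p = 0.0618). Klre1, among others, was too low to test in some, including edgeR with all 8 libraries. The count of 583 was 230 by DESeq2, 270 by DESeq2 with all 8 libraries, 357 by limma with 5 libraries, and 343 to 712 with 1 library left out; without the library block (no replicate block) it was 612.

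Counts between conditions depended on the fit. For DSS with genotypes averaged, 63 became 4 by DESeq2, with 5 or 8 libraries, 0 without a filter or with at least 3 Cd8 UMIs, 15 with Cd8b1 only, 1 without gamma-delta genes, 8 with all 8 libraries, 23 with 8 and no mixed barcodes, and 0 to 39 with 1 library left out. For DSS in wildtype mice, 30 became 2 by DESeq2, 15 without mixed barcodes, 1 with all 8, 0 without a filter, with at least 3 Cd8 UMIs, without gamma-delta genes, with 8 by DESeq2 and with 8 and no mixed barcodes, and 0 to 16 with 1 left out. For untreated mutants, 19 became 9 without mixed barcodes, 11 with 8 libraries and no mixed barcodes, 1 with all 8 and with all 8 by DESeq2, 0 by DESeq2 with 5, without a filter, with at least 3 Cd8 UMIs or without gamma-delta genes, and 1 to 21 with 1 left out. For mutants after DSS, 8 became 5 without mixed barcodes, 0 in those 4 fits, with all 8, with 8 by DESeq2 and with 8 and no mixed barcodes, and 0 to 8 with 1 left out. The difference of DSS effects, 19, became 0 by DESeq2 with 5 or 8 libraries or with at least 3 Cd8 UMIs, 10 without large barcodes, 4 with Cd8b1 only, 11 without gamma-delta genes, 3 without mixed barcodes, and 4 to 44 with 1 left out. Some of these fits tested fewer genes or held fewer cells. Without a filter more genes were tested (11191 against 1694 for DSS), and with all 8 libraries more cells entered. The cause of the changes in count was not tested.

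The direction of some named genes turned when 1 library was left out. The log2 fold change then ran from -4.85 to 0.050 for Hist1h2ap (DSS), from -0.23 to 2.95 for Sla (DSS in wildtype), from -2.23 to 1.60 for Tbc1d4 and -0.53 to 6.80 for Crbn (untreated mutant), and from -0.97 to 8.17 for Cd74 (mutant after DSS). In 4 of these 5 the turned value came with all 8 libraries but untreated wildtype replicate 2; for Cd74 it came without DSS-treated mutant replicate 1. Cd74 was 0.0359 without mixed barcodes (DSS in wildtype). In untreated mutants Gzma was 0.0871 without large barcodes and Plac8 was 0.11 with Cd8b1 only.

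The share differences kept their direction: -0.293 to -0.0954 points (DSS; exact permutation p = 0.0571 to 0.343) and 0.0615 to 0.257 points (mutant; p = 0.114 to 0.514) with 1 library left out, and -0.0282 (p = 0.8) and 0.073 points (p = 0.257) after thinning.

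The titles carry animal numbers. The deviations of libraries with neighbouring numbers gave r = -0.0934 and -0.0754 over 1286 genes. With 2 libraries per group and few cells per library, this is no test of a shared batch. All DSS mice have numbers in a single range apart from those of untreated mice, so number range and treatment cannot be told apart. A replicate block on all 8 libraries gave 1 call for untreated mutants and 0 after DSS. With 5 libraries, that block and most fits leaving out 1 library left no error term or lost a compared group and were not run. The same held for fits on only the compared libraries, for DSS in wildtype and for mutants after DSS. For untreated mutants such a fit held both mutants but only 1 wildtype library, so its count is not given.

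The depth limits these results. The 192 cells hold 641398 UMIs against 80465748 in CD4 T cells, and 3 libraries hold 15 or 16 cells.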
